A study of Mus musculus with 8 samples.

Results

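The steroid hormone dehydrogenases and reductases of liver were examined as a group of 10 genes, namely the 3β-hydroxysteroid dehydrogenases Hsd3b2 and Hsd3b3, the 11β-hydroxysteroid dehydrogenase Hsd11b1, the 17β-hydroxysteroid dehydrogenases Hsd17b2, Hsd17b11 and Hsd17b12, the aldo-keto reductases Akr1d1 and Akr1c6, and the 5α-reductases Srd5a1 and Srd5a2. The 10 members were chosen with earlier results of these data known. Their probes were found by name, as every probe whose transcript accession maps to one of these symbols, which gave 11 probes. All 10 genes were among the 14063 genes tested, and every one of the 11 probes was well above background on all 8 arrays. Liver RNA came from 4 Rap1 -/- and 4 wild-type mice, 1 mouse per array, on Agilent one-colour arrays. All mice were 10 weeks old and of a mixed background of 90% C57BL6 and 10% 129SV. The knockout is a constitutive whole-body deletion, made with cre driven by the EIIa promoter and kept in a colony from which the cre allele was bred out, so that cells outside the liver lack RAP1 too. The study describes its young mice as females on standard chow and also profiled young livers after fasting. The labels give neither sex nor feeding state, so whether these livers were fasted is not known here. RAP1, encoded by Terf2ip, is a telomere-binding protein that also sits along chromosome arms, and the study asked whether its loss alters liver gene expression before obesity sets in.

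These enzymes set how much active hormone a cell sees. Hydroxysteroid dehydrogenases switch a keto group and a hydroxyl group on the steroid, which turns a weak hormone into a strong one or the reverse, and reductases saturate the first ring, which inactivates glucocorticoids in liver. With testosterone the 5α-reductases yield the stronger androgen dihydrotestosterone, whereas the product of the 5β-reductase is inactive as an androgen. Liver is the main site of steroid clearance, and many of the same enzyme families serve bile acid synthesis or fatty acid elongation.

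In Rap1-deficient liver all 10 genes were on average higher than in wild-type liver, by 1.12-fold (Hsd17b11) to 1.37-fold (Hsd3b3), and none of them passed the test over all genes (limma, Benjamini-Hochberg adjusted p from 0.769 to 0.869). The median log2 fold change of the 10 genes, knockout minus wild type, was 0.28, and that of all 14063 genes was 0.02. Among all genes 56.2% had a log2 fold change above 0. As the 10 genes were chosen with earlier results known, their shared direction is a description and not a test. At an unadjusted p under 0.05, which allows for no multiple testing, 3 of the 10 (Akr1d1, Hsd3b3 and Hsd17b12) were higher, and so were 4.01% of all genes. At an adjusted p under 0.05 only 0.0142% of all genes passed, which is 2 genes. In none of the 10 did every knockout array lie above every wild-type array, a pattern that 3.01% of all genes showed. The 95% interval of the log2 fold change lay above 0 for 3 genes and included 0 for the other 7.

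Upstream sequences are shown for Akr1d1, Hsd3b3 and Hsd17b12, which had the smallest p values, and for Hsd3b2, the neighbour of Hsd3b3. They are the 250 bases before the annotated transcription start, 5′ to 3′ along the gene, from the RefSeq table of build GRCm38.p6, at chr6:37529923-37530172, plus strand (Akr1d1), chr3:98763129-98763378, minus strand and chr3:98762411-98762660, minus strand (Hsd3b3, which has a pair of listed starts), chr2:94157910-94158159, minus strand (Hsd17b12) and chr3:98724544-98724793, minus strand (Hsd3b2). Capitals mark matches, on either strand, to 5 short motifs: TTAGGG, the telomeric repeat unit bound by the complex that holds RAP1; AGGTCA, a nuclear receptor half-site; AGAACA, a steroid receptor half-site; TATAAA, the TATA box; and CCAAT, the CCAAT box.
Akr1d1: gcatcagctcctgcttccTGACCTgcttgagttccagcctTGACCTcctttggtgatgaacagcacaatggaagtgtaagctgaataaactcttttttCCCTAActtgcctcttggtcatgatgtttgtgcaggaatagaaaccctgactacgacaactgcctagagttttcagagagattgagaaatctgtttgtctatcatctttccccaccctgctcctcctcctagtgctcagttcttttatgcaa
Hsd3b3, upstream of one listed start: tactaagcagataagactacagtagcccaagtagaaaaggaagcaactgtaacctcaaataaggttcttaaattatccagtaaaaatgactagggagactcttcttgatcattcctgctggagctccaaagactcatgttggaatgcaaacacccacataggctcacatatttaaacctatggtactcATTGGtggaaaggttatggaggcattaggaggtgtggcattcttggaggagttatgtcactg
Hsd3b3, upstream of the other listed start: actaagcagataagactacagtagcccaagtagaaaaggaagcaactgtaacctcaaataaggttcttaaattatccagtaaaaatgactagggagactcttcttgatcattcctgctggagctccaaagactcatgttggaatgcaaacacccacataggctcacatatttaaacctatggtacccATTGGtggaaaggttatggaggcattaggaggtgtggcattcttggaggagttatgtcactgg
Hsd17b12: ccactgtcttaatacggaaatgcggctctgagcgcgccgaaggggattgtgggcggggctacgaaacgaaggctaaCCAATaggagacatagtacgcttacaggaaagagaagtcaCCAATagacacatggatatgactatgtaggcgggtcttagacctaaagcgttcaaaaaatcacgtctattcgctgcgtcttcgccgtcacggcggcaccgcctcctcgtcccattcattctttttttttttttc
Hsd3b2: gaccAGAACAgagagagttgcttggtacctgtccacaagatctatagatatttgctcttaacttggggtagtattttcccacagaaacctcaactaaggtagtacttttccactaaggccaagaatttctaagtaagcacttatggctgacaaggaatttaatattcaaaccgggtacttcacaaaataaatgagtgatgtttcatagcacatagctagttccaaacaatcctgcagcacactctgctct

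The Akr1d1 sequence was the one among the 9 genes with a listed promoter that held TTAGGG, as its reverse complement starting 152 bases before the start, and the one that held AGGTCA, as 2 reverse complements at 232 and 210 bases. TTAGGG occurs in 9.32% and AGGTCA in 14% of the 32851 promoters of that table when searched in the same way. AGAACA was present upstream of Hsd3b2 (16.1% of all promoters) and TATAAA upstream of Akr1c6 (12.4%). CCAAT was present upstream of 6 of the 9 genes (Hsd3b3, Hsd11b1, Hsd17b11, Hsd17b12, Akr1c6 and Srd5a1), and 33.8% of all promoters hold it. No motif overlapped another. The sequences at the Hsd3b3 starts, 718 bases apart, were identical at 248 of 249 aligned bases, so that this stretch is present as 2 near copies. Matches are letters in a window and say nothing about binding in these livers.

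Values of single arrays are given as the log2 of the background-subtracted signal minus that array's 75th percentile, so that a value of 0 means as bright as that percentile. Probes differ in how strongly they bind, and levels are therefore compared between arrays and never between genes.

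The 3β-hydroxysteroid dehydrogenases convert pregnenolone and dehydroepiandrosterone into progesterone and androstenedione, the step that all active steroid hormones pass through. Hsd3b3 was at 5.33, 5.38, 5.71 and 5.12 in wild-type replicates 1 to 4 and at 6.22, 5.76, 5.70 and 5.71 in knockout replicates 1 to 4. Its group means were 5.39 ± 0.24 and 5.85 ± 0.25 (SD, n = 4). Knockout replicate 1 was the highest array, and the lowest knockout array lay just under the highest wild-type array, so that the groups overlapped narrowly. Hsd3b3 had a log2 fold change of 0.46 (SE 0.16, a 1.37-fold difference with a 95% interval from 1.06 to 1.78), the largest in size of the 10, with an adjusted p of 0.769 by limma and an exact permutation p of 0.0857. Hsd3b2 was read by 2 probes. The brighter one, which represents the gene, was at 1.75, 2.08, 2.26 and 2.16 in wild-type and at 2.38, 2.37, 1.92 and 2.71 in knockout liver. Of the knockout arrays 3 lay above every wild-type array, and knockout replicate 3 lay below 3 of the 4 wild-type arrays. This probe had a log2 fold change of 0.28 (SE 0.18, adjusted p = 0.829, exact permutation p = 0.229). Leaving out knockout replicate 4 gave 0.16, leaving out wild-type replicate 1 gave 0.18, and leaving out knockout replicate 3 gave 0.43. The other Hsd3b2 probe was at 1.94, 1.60, 2.15 and 1.97 in wild-type and at 2.46, 2.61, 2.23 and 2.09 in knockout liver, with a larger log2 fold change of 0.43 (SE 0.16, adjusted p over probes = 0.809, exact permutation p = 0.0571). The probes correlated weakly over the 8 arrays (Pearson r = 0.38, a description over arrays of both genotypes). With the mean of both probes Hsd3b2 was at 0.36 (adjusted p = 0.770) and joined the genes with an unadjusted p under 0.05, which then were 4 of 10.

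**Figure D1:**
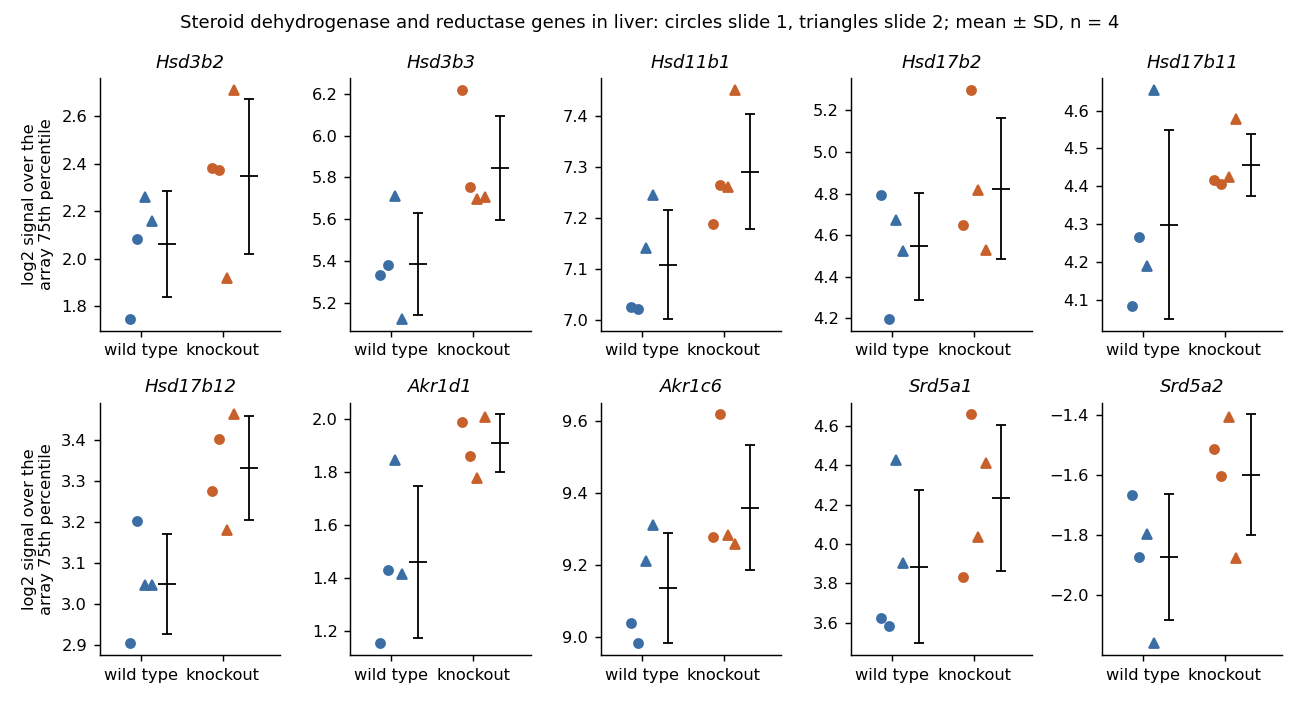
Signal of the 10 steroid dehydrogenase and reductase genes in each liver, as log2 over the array's 75th percentile (y axis, a separate range for each gene), by genotype (x axis), with circles for slide 1, triangles for slide 2, and bars for the mean ± SD (n = 4). For every gene the knockout mean lies above the wild-type mean and the ranges of the genotypes overlap, narrowly for Hsd3b3 and widely for Hsd17b11.

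Hsd11b1 encodes the enzyme that regenerates active corticosterone from 11-dehydrocorticosterone inside hepatocytes. Its values, each the mean of 10 spots, were 7.03, 7.02, 7.14 and 7.25 in wild-type and 7.19, 7.26, 7.26 and 7.45 in knockout liver. Of the knockout arrays 3 lay above every wild-type array, and wild-type replicate 4 lay within the knockout range. Hsd11b1 had a log2 fold change of 0.18 (SE 0.10, adjusted p = 0.804, exact permutation p = 0.0571), which is 1.13-fold. H6pd, which supplies the NADPH that drives Hsd11b1 in the endoplasmic reticulum, had a log2 fold change of -0.14 (SE 0.09, adjusted p = 0.829). Hsd11b2, the enzyme of the opposite, inactivating direction in kidney, was on no array well above background.

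The 17β-hydroxysteroid dehydrogenases differ in their main substrates. Hsd17b12 reduces ketoacyl-CoA in the elongation of very long fatty acids and has also been described to act on estrone. It was at 2.90, 3.20, 3.05 and 3.05 in wild-type and at 3.28, 3.40, 3.18 and 3.46 in knockout liver. Only knockout replicate 3 fell below the highest wild-type array. The log2 fold change was 0.28 (SE 0.11, a 1.22-fold difference with a 95% interval from 1.03 to 1.44), with an adjusted p of 0.769 and an exact permutation p of 0.0571. Hsd17b2 oxidises estradiol and testosterone to their weaker keto forms. It was at 4.79, 4.20, 4.67 and 4.53 in wild-type and at 4.65, 5.30, 4.82 and 4.53 in knockout liver. Most of the difference lay in 2 arrays, the high knockout replicate 2 and the low wild-type replicate 2. The log2 fold change of 0.28 (SE 0.19, adjusted p = 0.840, exact permutation p = 0.286) was 0.12 without the former and 0.16 without the latter. Hsd17b2 lies on chromosome 8, as the deleted gene Terf2ip does, 23 protein-coding genes away in the RefSeq order. Hsd17b11, a lipid droplet protein, was at 4.08, 4.27, 4.19 and 4.65 in wild-type and at 4.42, 4.41, 4.43 and 4.58 in knockout liver. It was the single gene of the 10 whose highest array was wild type, replicate 4. Its log2 fold change was the smallest of the 10 at 0.16 (SE 0.13, adjusted p = 0.869, exact permutation p = 0.314), and leaving out wild-type replicate 1 or 4 gave 0.09 or 0.28.

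The aldo-keto reductase Akr1d1 is the 5β-reductase that saturates the first ring of cortisol, testosterone and the intermediates of bile acid synthesis. It was at 1.15, 1.43, 1.85 and 1.42 in wild-type and at 1.99, 1.86, 1.78 and 2.01 in knockout liver. The knockout arrays lay close together (SD 0.11, against 0.29 in wild type), and only knockout replicate 3 was below the highest wild-type array, replicate 3. The log2 fold change was 0.45 (SE 0.15, a 1.36-fold difference with a 95% interval from 1.08 to 1.72), with an adjusted p of 0.769 and an exact permutation p of 0.0571, while 4 against 4 arrays can reach 0.0286 at the least. Among all genes Akr1d1 was most closely followed over the 8 arrays by Wwtr1 (Pearson r = 0.98), Fam136a and Ndufc2 (both 0.97), whose log2 fold changes were 0.39, 0.16 and 0.29 and did not pass (adjusted p = 0.769, 0.806 and 0.769). These correlations were picked as the highest among all tested genes and run over arrays of both genotypes. Whether they exceed chance was not tested. Akr1c6 reduces androstenedione to testosterone. It was at 9.04, 8.98, 9.21 and 9.31 in wild-type and at 9.28, 9.62, 9.28 and 9.26 in knockout liver. Knockout replicate 2 was well above the other 3 knockout arrays, which lay within the upper part of the wild-type range. Akr1c6 had a log2 fold change of 0.22 (SE 0.12, adjusted p = 0.804, exact permutation p = 0.114), which was 0.14 without that array.

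The 5α-reductases produce dihydrotestosterone and the 5α-reduced forms of glucocorticoids and progesterone, and Srd5a1 is the isoform best known from liver. Srd5a1 was at 3.62, 3.58, 4.43 and 3.91 in wild-type and at 3.83, 4.66, 4.04 and 4.41 in knockout liver. It had the widest spread of the 10 (SD 0.39 and 0.37), and wild-type replicate 3 lay above 3 of the 4 knockout arrays. For Srd5a1 the log2 fold change was 0.35 (SE 0.24, adjusted p = 0.834, exact permutation p = 0.257), which became 0.21 when knockout replicate 2 was left out and 0.53 when wild-type replicate 3 was. Srd5a2 was below the 75th percentile on every array, at -1.67, -1.87, -1.80 and -2.16 in wild-type and at -1.51, -1.60, -1.41 and -1.88 in knockout liver. Of its knockout arrays 3 lay above every wild-type array. Srd5a2 had a log2 fold change of 0.27 (SE 0.14, adjusted p = 0.792, exact permutation p = 0.143), or 0.18 without wild-type replicate 4. Srd5a3, whose main role is in the making of dolichol for glycosylation, was at 0.07 (SE 0.10, adjusted p = 0.925).

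Across the 10 genes the highest array was a knockout array for 9, and the lowest was a wild-type array for all 10. The share of all genes with such extremes is not given here. As the genes were chosen with earlier results known, these counts are a description. Knockout replicate 4 was highest for 4 genes and knockout replicate 2 for 3 (Hsd17b2, Akr1c6 and Srd5a1), while wild-type replicates 1 and 2 were each lowest for 4. To set arrays side by side, each gene's mean over the 8 arrays was subtracted and the 10 deviations were averaged. This mean deviation was -0.25, -0.23, 0.02 and -0.13 in wild-type and 0.12, 0.25, 0.05 and 0.17 in knockout replicates 1 to 4. Wild-type replicate 3 and knockout replicate 3 were nearly level, and knockout replicate 2 was above the gene mean for 10 of 10 genes. Over the 8 arrays the genes correlated positively in 40 of 45 pairs (median Pearson r 0.53), highest for Hsd3b3 with Akr1d1 (0.82) and lowest for Hsd17b11 with Srd5a2 (-0.35). After the genotype means were taken off, 28 of 45 pairs were above 0 and the median was 0.20. These correlations are a description over arrays that share their normalization and over genes chosen with earlier results known.

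**Figure D2:**
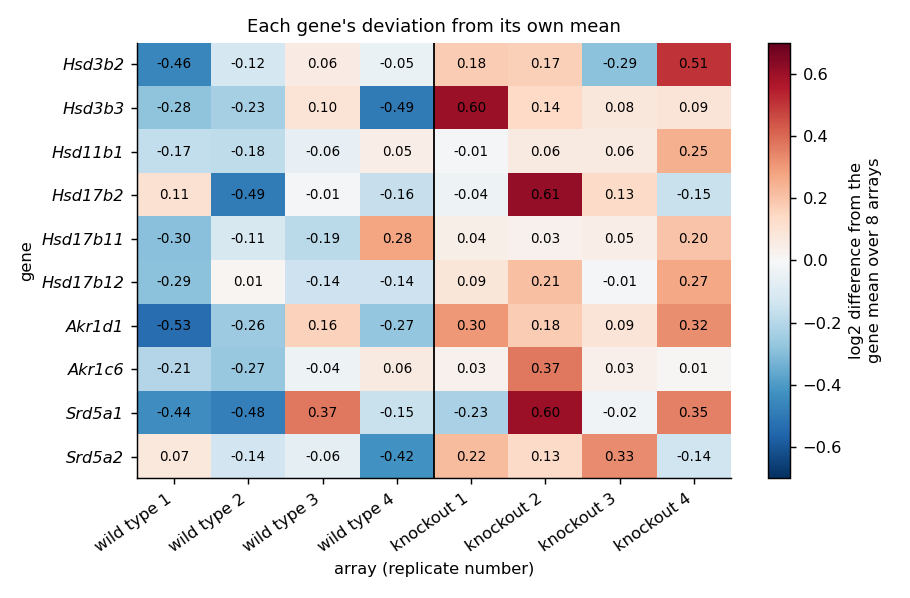
Deviation of each of the 10 genes (rows) from its own mean over the 8 arrays, on the log2 scale, in each array (columns), red above and blue below the mean, with wild type left of the line. Wild-type replicates 1 and 2 are below the mean for nearly every gene, whereas wild-type replicate 3 and knockout replicate 3 average 0.02 and 0.05.

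The arrays came from 2 slides, each holding 2 arrays of either genotype. Within slide 1 (replicates 1 and 2) the median difference of the 10 genes, the mean of 2 knockout minus that of 2 wild-type arrays, was 0.45, and within slide 2 (replicates 3 and 4) it was 0.13. All 10 genes were above 0 on both slides, and 9 differed more on slide 1. The exception was Srd5a2, at 0.21 on slide 1 and 0.34 on slide 2. Hsd17b12 (0.29 and 0.28) and Hsd11b1 (0.20 and 0.16) differed about equally on both. The difference of Srd5a1 was 0.64 on slide 1 and 0.06 on slide 2, and that of Akr1c6 was 0.44 and 0.01. Hsd3b3 (0.63 and 0.29) and Akr1d1 (0.63 and 0.26) differed less on slide 2 too. Wild-type arrays were brighter on slide 2 than on slide 1 for 8 genes (median 0.21) and knockout arrays for 2 (median -0.05). The number of genes with an unadjusted p under 0.05 was 2 within slide 1 and 0 within slide 2, where 2 arrays face 2. The shares of all genes for these counts within slides are not given here. The 10 genes were chosen with earlier results known, so their shared sign on both slides is a description and not a replication. On both slides wild-type arrays held positions 1 and 2 and knockout arrays positions 3 and 4, so that position and genotype cannot be told apart.

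**Figure D3:**
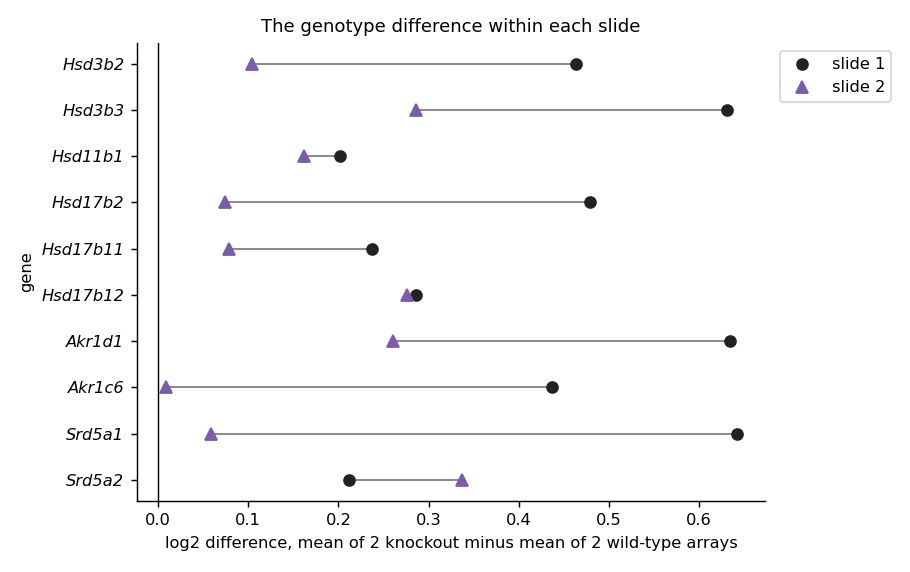
Difference between knockout and wild-type liver for each gene (y axis) on the log2 scale (x axis), from the 2 arrays of each genotype on slide 1 (circles) and on slide 2 (triangles). All points are above 0, and the triangles lie left of the circles for every gene but Srd5a2.

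The other genes of the same enzyme families were described next, from lists of close relatives. Of 5 other 3β-hydroxysteroid dehydrogenases 3 were tested and 2 were above 0. Of 11 other 17β-hydroxysteroid dehydrogenases 9 were tested, with 7 above 0 and a median of 0.08. Hsd17b7 (log2 fold change 0.36, SE 0.17) had the smallest p of these. Of 7 other aldo-keto reductases of family 1C 5 were tested and all 5 were above 0, with a median of 0.08 and a range from 0.03 to 0.19 (Akr1c14). None passed, and at an unadjusted p under 0.05 there were 0 in either direction in these 3 lists by limma. Of all 14063 genes 894 had such a p in either direction, a share at which lists this short can hold 0. The Hsd3b and Akr1c genes are families of similar sequence, and whether a probe also bound a relative was not tested.

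**Figure D4:**
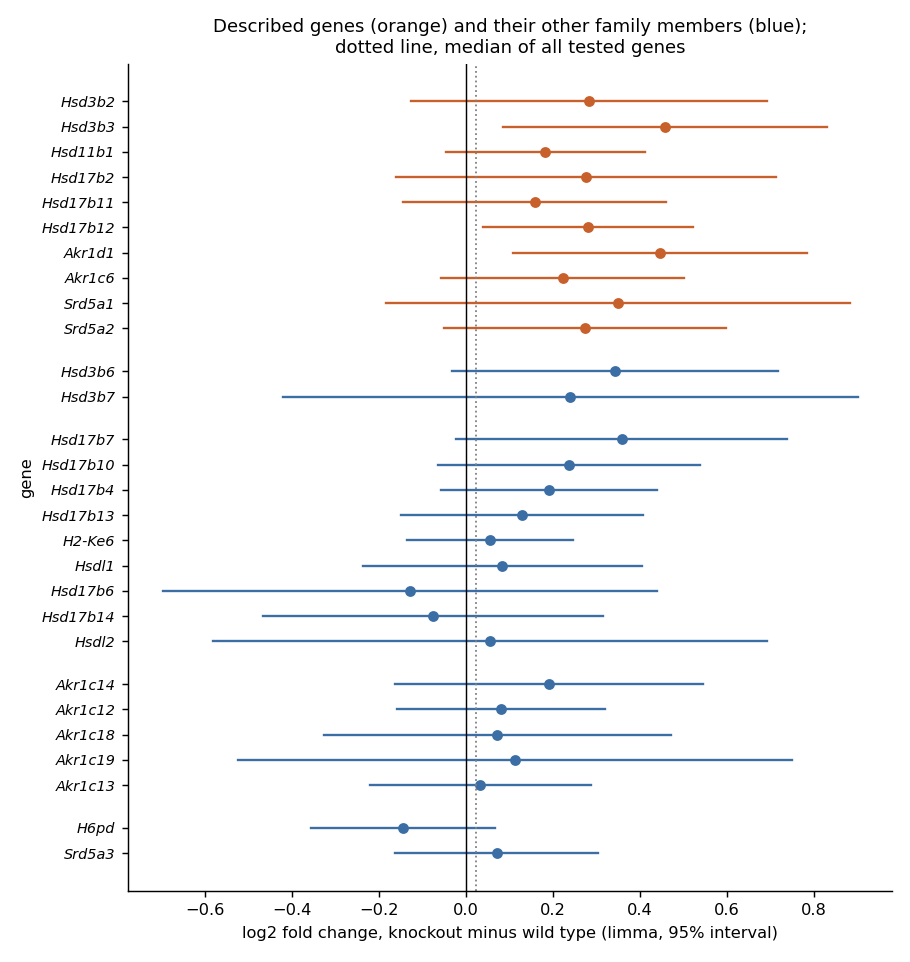
Log2 fold change between knockout and wild-type liver with its 95% interval from limma (x axis) for the 10 genes described (orange) and the other tested genes of their families and partners (blue), with a dotted line at the median of all tested genes (0.02). The 10 orange points are all above 0, as are most blue ones, and Hsd3b5, at -0.75 with an interval from -4.69 to 3.19, is left out because it would set the scale.

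On chromosome 3 the Hsd3b genes stand side by side, in the RefSeq order Hsd3b5, Hsd3b2, Hsd3b3, Hsd3b6, Hsd3b1 and then Hao2, a hydroxyacid oxidase gene. Hsd3b6, a 3β-hydroxysteroid dehydrogenase next to Hsd3b3, was at 0.34 (SE 0.16, adjusted p = 0.783), and so 3 genes in a row were between 0.28 and 0.46 on the log2 scale and none passed. Hsd3b1, the isoform of adrenal gland and gonads, was detected well above background on 0 of 4 wild-type and 3 of 4 knockout arrays. It was at -5.71, -3.90, -5.50 and -6.06 in wild-type and at -3.82, -3.05, -3.11 and -2.38 in knockout liver. Wild-type replicate 2 and knockout replicate 1, the knockout array near background, were about level. Too few arrays detected Hsd3b1 for the test over genes, and in a fit of all probes with no filter it did not pass (adjusted p = 0.964). Hsd3b5, a 3-ketosteroid reductase known from male liver, varied more between mice than any other gene of the lists. It was at -0.24, -2.94, 1.58 and -0.13 in wild-type and at -2.59, 4.11, -4.69 and -1.55 in knockout liver, with the highest and the lowest value both in knockout mice. Hao2 ran the other way in the same mouse, at -0.55 in knockout replicate 2 and between 1.69 and 2.39 in the other knockout arrays, against 0.05 to 0.90 in wild type (log2 fold change 1.02, SE 0.57, adjusted p = 0.804).

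**Figure D5:**
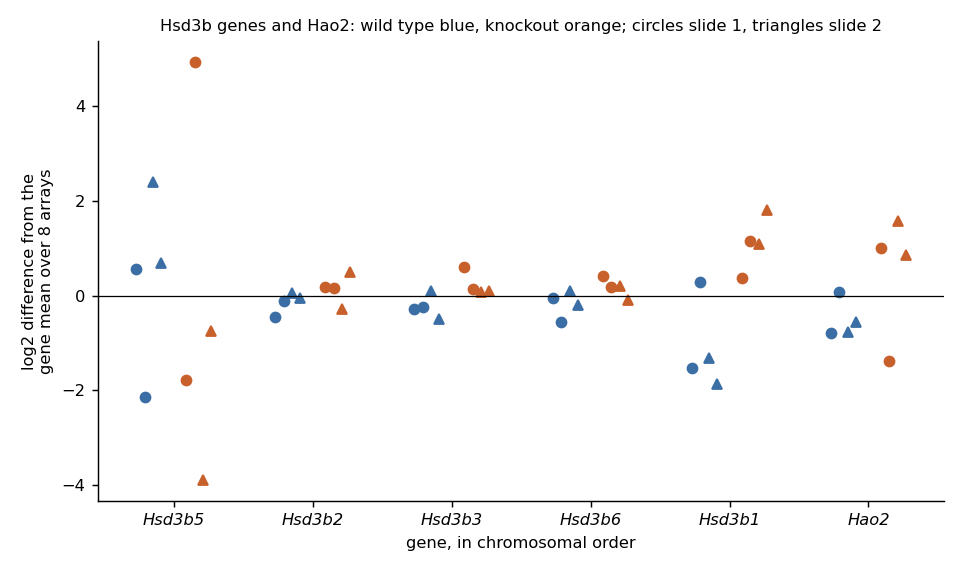
Deviation of the neighbouring Hsd3b genes and Hao2 from their own mean over the 8 arrays (y axis, log2), in chromosomal order (x axis), with wild type in blue, knockout in orange, circles for slide 1 and triangles for slide 2. Hsd3b2, Hsd3b3 and Hsd3b6 spread least, whereas Hsd3b5 has its highest and lowest points in knockout replicates 2 and 3.

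Because several of these enzymes differ between sexes in mouse liver, sex-related genes were read on the same arrays. Xist was well above background on all 8 arrays. Ddx3y, Eif2s3y and Kdm5d, of the Y chromosome, were not on any, and 1 of 2 Uty probes was well above background on knockout replicate 2 alone. Of 15 tested male-biased liver genes 11 were above 0 (median 0.09), and of 15 tested female-biased genes 9 were (median 0.15). None passed, and Cyp3a16, a female-biased cytochrome P450 of steroid hydroxylation, had the smallest p by limma. Its log2 fold change was 0.49 (SE 0.13, adjusted p = 0.769). It was the 1 female-biased gene with an unadjusted p under 0.05, against 0 male-biased genes and 4.01% of all genes that were higher. The median of the 10 steroid genes was 0.23 without knockout replicate 2, the array with the high Hsd3b5 and low Hao2. Other sex-biased genes were extreme on that array too. The male-biased Slco1a1 was highest there (3.18) and the female-biased Acot3 lowest (2.36), whereas the female-biased Sult3a1 was highest (4.79). The part of this array's state in the steroid genes was not tested.

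Genes upstream and downstream of the hormones gave the following. Of 7 genes of steroid synthesis in adrenal gland and gonads 3 were tested and all were below 0, namely Star (-0.62, SE 0.17), Cyp21a1 (-0.74, SE 0.24) and Cyp17a1 (-0.26, SE 0.13), with adjusted p values from 0.769 to 0.788. Cyp11a1 and Cyp11b1, which define steroid-making cells, were well above background on 0 of 8 arrays. Of 11 tested conjugation genes, the sulfotransferases and glucuronosyltransferases that make steroids soluble, 10 were above 0 (median 0.14). Of 7 tested steroid receptor and carrier genes 3 were above 0 (median -0.02), and of 12 glucocorticoid-responsive genes 5 were (median -0.10). Of 10 bile acid synthesis partners of Akr1d1 8 were above 0 (median 0.26), led by Acox2, an oxidase that shortens the bile acid side chain (0.49, SE 0.13, adjusted p = 0.769). None of these genes passed.

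The targeted gene was read by 2 probes, one of which was well above background on all wild-type and no knockout array (at least 17.9-fold lower in the knockout, taken against the dimmest signal still called well above background on each knockout array, adjusted p over probes = 7.09e-06), while the other was higher in the knockout (log2 fold change 1.20, adjusted p = 0.127). In the test over genes Terf2ip was represented by the probe that was higher in the knockout, since that probe had the higher mean over the 8 arrays. The probe lost in the knockout did not enter the test over genes. Correlations between arrays over the tested genes ran from 0.984 to 0.993. The share of probes well above background was between 50.03% and 65.3%. Hepatocyte markers had a median log2 fold change of 0.03, and their summed level, in multiples of the 75th percentile, was 3362 to 3556 in wild-type and 3088 to 3240 in knockout liver. That sum is mostly Alb (log2 fold change -0.21, SE 0.09), and without Alb it was 1293 to 1475 and 1335 to 1480, while 4 of the 6 markers were above 0. Of 6 cholangiocyte markers 4 were above 0 and 2 below (median 0.41), with a range from -0.53 to 0.69 (Spp1, SE 0.24). Their summed level was 3.36 to 4.77 in wild-type and 4.08 to 8.18 in knockout liver. Most of that sum is Spp1. Without Spp1 it was at most 1.71 in wild-type and 2.42 in knockout liver, and the ranges of the genotypes overlapped. All 3 tested neutrophil markers were below 0 (median -0.70), with sums of 6.33 to 16.96 in wild-type and 6.09 to 9.61 in knockout liver. S100a9 (3.29 and 2.94) and S100a8 (1.02 and 0.38) were highest in wild-type replicates 1 and 2. Those arrays also had the lowest mean deviation of the steroid genes. The other S100a9 values lay between 1.12 and 2.33. Elane had another order, at 2.36 and 1.86 in wild-type replicates 1 and 2 and at 2.09 in knockout replicate 1. All 5 tested Kupffer cell and macrophage markers were below 0 (median -0.11, sums of 118 to 158 and 93.4 to 153), and of 6 endothelial markers 3 were (median 0.02, sums of 70.4 to 91.6 and 69.5 to 95.9), among them Lyve1 (-0.67, SE 0.29). None of these markers passed. Adrenal cortex markers summed to 4.19 to 6.73 in wild-type and 3.91 to 4.57 in knockout liver, with Mc2r, Cyp11a1 and Cyp11b1 well above background on none. Without Nr5a1, the brightest of them, the sum was 2.07 to 4.73 in wild-type and 1.62 to 2.03 in knockout liver, and these ranges did not overlap. The part of these markers in the differences of the steroid genes was not tested, and in whole liver a changed number of cells and a changed amount of RNA per cell cannot be told apart.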

How the data were processed

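Liver RNA of 4 knockout and 4 wild-type mice was read on 1-colour Agilent arrays, and the arrays of a genotype are separate mice per the labels. Per the file headers, spot intensity was extracted with Feature Extraction 10.7.3.1, and the intensity used, the processed signal, came background-subtracted but without scaling across arrays. Processed log2 values of the same arrays were deposited too, and the submitters' processing notes name limma. That table lay within 0.05 of the values after normexp (offset 50) and quantile normalization at 99.5% of entries. RNA integrity numbers were 6.5 to 8.5.

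Here, the log2 processed signal minus each array's 75th percentile (a signal of 179 to 227) was used. Outlier spots and control spots were left out, spots of a probe were averaged, and no spot was saturated. Precision is limited by the number of arrays. Accessions were named through RefSeq (GRCm38.p6, for names and gene order, since the array annotation is mm9), which named 26056 of 55681 probes. Probes well above background on at least 4 of 8 arrays were tested (31065 probes), and a gene is its tested probe with the highest mean. Genotypes were compared with limma 3.58.1 in R 4.3.3 (lmFit and eBayes, no covariates) with Benjamini-Hochberg adjustment over all genes, or over all probes where said, and passed at an adjusted p under 0.05. For single genes the exact permutation test is two-sided and runs over all 70 splits of the arrays into 4 and 4. The procedure was tested on simulated data with independent genes and log2 changes larger than those of the 10 genes. That test therefore does not show how often differences as small as theirs are found. Named genes are all 10 members, up to 3 genes with the smallest p of each described list and the 3 genes most correlated with the member of smallest p. Hsd3b1, the order of the Hsd3b genes and the sex-biased genes named for knockout replicate 2 were added after their values were seen. The members and lists were chosen with earlier results of these data known. Alternatives were other normalizations (normexp started from the median signal, since the files hold no mean signal), other filters, another gene rule, another variance model, the slide and replicate number as blocks, single slides, and each array left out.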

Additional observations from a re-analysis of the deposited data

Results flagged for a closer look

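Of 22 groups of 4 arrays (11 probes in either genotype), 3 had an array whose gap to its nearest neighbour took up more of the group's range than Dixon's 95% limit for 4 values allows. About 1 in 20 groups does so by chance. All 3 were knockout groups. They were Hsd3b3 with knockout replicate 1 high at 6.22, Hsd17b11 with knockout replicate 4 high at 4.58 and Akr1c6 with knockout replicate 2 high at 9.62. Without knockout replicate 1 the log2 fold change of Hsd3b3 was 0.33 and its unadjusted p was no longer under 0.05.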

How the results depend on the processing

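In all 20 alternatives run, 0 of the 10 steroid genes passed and all 10 had a log2 fold change above 0, with adjusted p values from 0.653 to 0.999. For these genes the other filters, the variance model and the balanced blocks cannot move a log2 fold change, so its sign was fixed there in advance. The median of the 10 genes was 0.21 with normexp and quantile normalization, and equal to that in the authors' value table. Centring on the median gave 0.44, a scaling that also moved the median of all genes from 0.02 to 0.18. The 10 genes stood 0.25 above the median of all genes in both, which must be so when each scaling subtracts 1 value per array. That gap was 0.20 with normexp and quantile normalization and in the authors' table, and 0.22 with quantile normalization alone. The median of the 10 genes was 0.45 within slide 1 and 0.13 within slide 2, and 0.23 to 0.31 with any 1 array left out. The number with an unadjusted p under 0.05 was 0 within slide 2, 4 with the mean of all probes of a gene and 2 to 4 with any 1 array left out. Akr1d1 had such a p in 19 of the 20, Hsd3b3 in 17 and Hsd17b12 in 11. The alternatives reuse the same arrays, so these counts are not independent repeats. Of all genes, 2 passed in the main comparison, 0 with normexp and quantile normalization, in the authors' table, within slide 1 and with the replicate block, and 1 with quantile normalization alone, with no filter, with detection on all 8 arrays, with slide as a block, within slide 2 and with any 1 array left out. It was 3 with the mean of all probes of a gene and with a trended and robust variance, and 2 when centred on the median. Same-numbered arrays of the genotypes did not deviate together (r = 0.09, -0.18, -0.07 and 0.10 over genes), and 0 of 8 arrays correlated best with the array of its own number. These values gave no sign that the numbers pair the mice, and they cannot show how the mice were matched. With the replicate block the median of the 10 genes was 0.28 and 4 had an unadjusted p under 0.05, Srd5a2 in addition. Signal over background did not limit the 10 genes.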
